A study of Drosophila melanogaster with 3 samples.

Results

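The genes described here encode the translation initiation factors (eIF) and translation elongation factors (eEF) of *Drosophila melanogaster*, and the measurement is where the transcription factor Atf3 was found on chromatin relative to their promoters. Members were all protein-coding genes of the Ensembl annotation with a symbol beginning in eIF or eEF. This rule gave 52 of 13945 protein-coding genes, of which 44 encode initiation factors and 8 encode elongation factors. Chromatin immunoprecipitation followed by sequencing was carried out with an antibody against GFP on whole embryos collected over the first 0 to 24 h of development, with the sexes mixed. The embryos came from the transgenic strain A3-3-GFP, which stably expresses Atf3 with GFP at its C-terminus, and all samples carry this insertion. The 3 biological replicates form 1 group, with no treatment, no second genotype and no untagged group among the samples, so every comparison below is between genes within the same samples. Whole embryos mix all cell types and stages, and a peak does not tell in which of them the protein was bound.

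Translation initiation brings the initiator tRNA and both ribosomal subunits to the start codon of an mRNA. eIF2 delivers the tRNA, eIF3 holds the small subunit complex together, the eIF4 group recognises and unwinds the capped end of the mRNA, and eIF5 and eIF5B act when the start codon is chosen and the large subunit joins. Elongation then needs eEF1, which brings each aminoacyl-tRNA, and eEF2, which moves the ribosome along by a codon. Atf3 is a basic leucine zipper (bZIP) protein, a family whose members bind as dimers to the cyclic AMP response element (CRE) or to the related AP-1 site. Many promoters of genes used in growing cells in the fly carry another word, the DNA replication-related element (DRE), which is bound by the factor DREF. The TCT initiator is a pyrimidine-rich start site known from ribosomal protein genes and other genes of the translation machinery.

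The promoters below are shown because they lie at or next to Atf3 summits and because DRE was the motif found most often at the factor genes after its own core and the TATA box. Sequence is from the release 6 genome (dm6), read 5′ to 3′ on the strand of the named factor gene and ending at a transcription start site (TSS) of that gene, except for eIF1. Capitals mark matches to DRE (TATCGATA), its core (ATCGAT), the CRE core (TGACGT) and the E-box (CACGTG), which were searched on both strands, and each DRE contains a DRE core. The eIF2gamma stretch (chr3R:15263458-15263561, minus strand) runs from the start of the neighbouring gene Set, with 10 more bases, to that of eIF2gamma. The eIF3a stretch (chr3R:4433895-4433964, minus strand) and the eIF1A stretch (chr3R:18274447-18274665, plus strand) are the spaces between the start sites of these genes and of their neighbours CG1074 and Vps39. For eIF1 (chr3L:3222960-3223080, plus strand) the stretch is the end of the intervening space next to RpL28, where the summit lay. The eEF1gamma (chr3R:29220072-29220172, plus strand) and eEF2 (chr2L:21682164-21682264, minus strand) stretches are upstream of the first start site.
eIF2gamma: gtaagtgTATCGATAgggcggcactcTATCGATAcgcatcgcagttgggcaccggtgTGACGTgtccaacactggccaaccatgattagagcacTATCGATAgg
eIF3a: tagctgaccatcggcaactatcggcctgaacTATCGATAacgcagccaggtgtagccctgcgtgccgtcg
eIF1A: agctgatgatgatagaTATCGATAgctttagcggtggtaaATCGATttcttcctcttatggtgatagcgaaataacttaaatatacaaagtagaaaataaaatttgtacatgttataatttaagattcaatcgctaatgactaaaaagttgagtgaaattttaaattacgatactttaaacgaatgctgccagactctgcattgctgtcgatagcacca
eIF1: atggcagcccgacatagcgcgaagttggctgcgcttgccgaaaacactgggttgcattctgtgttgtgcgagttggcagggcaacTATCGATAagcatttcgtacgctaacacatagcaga
eEF1gamma: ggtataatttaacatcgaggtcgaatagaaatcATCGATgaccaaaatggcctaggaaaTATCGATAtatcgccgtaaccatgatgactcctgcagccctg
eEF2: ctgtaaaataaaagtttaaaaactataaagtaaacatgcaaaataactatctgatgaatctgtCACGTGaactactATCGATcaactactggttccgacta

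DRE was also present at factor genes that had no Atf3 summit in the main peak list described below, and 3 of them are shown for comparison. They are eEF1delta (chr2L:10232387-10232507, plus strand), eIF4A (chr2L:5981614-5981764, plus strand) and eIF2alpha (chrX:16446993-16447143, minus strand), each read 5′ to 3′ and ending at its first start site, with the same marking.
eEF1delta: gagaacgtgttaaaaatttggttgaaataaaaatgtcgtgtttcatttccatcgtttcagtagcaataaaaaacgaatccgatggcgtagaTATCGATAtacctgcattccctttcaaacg
eIF4A: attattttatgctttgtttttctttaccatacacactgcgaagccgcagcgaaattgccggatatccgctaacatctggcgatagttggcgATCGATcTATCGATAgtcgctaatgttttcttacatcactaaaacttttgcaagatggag
eIF2alpha: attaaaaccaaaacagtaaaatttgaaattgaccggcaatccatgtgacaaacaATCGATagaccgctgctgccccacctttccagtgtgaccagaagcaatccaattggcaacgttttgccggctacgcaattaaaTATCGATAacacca

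A gene was called bound when the summit of a peak, its highest point, lay within 500 bp of any of its start sites. The main list held 2896 peaks that the authors kept by their irreproducible discovery rate (IDR), which is low where peaks rank alike in separate replicates. These were the 2896 calls of highest signal among the 27754 pooled calls, and each replicate had a relaxed list of 30000 calls. The signal of a call is the authors' own value for its strength, with a scale not given in the sources used here, so it was compared only within a list. It ran from 79.8 to 1627 in the IDR list. The number of reads behind each call is unknown, since the lists do not state it.

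Atf3 summits were found at 14 of the 52 factor genes in the IDR list, a share of 26.9%, where 14.2% of all protein-coding genes were bound. The 10 bound initiation factor genes were 22.7% of their 44, and the 4 bound elongation factor genes were 50% of their 8. The bound initiation factors were eIF1, eIF1A, eIF2gamma, eIF3a, eIF3c, eIF3h, eIF3m, eIF4EHP, eIF5B and eIF6. The bound elongation factors were eEF1alpha1, eEF1gamma, eEF2 and eEF5. A stricter filter kept only the IDR peaks that overlapped top peaks of replicates 2 and 3 (the 2896 strongest calls of each). It left 9 factor genes and 10.2% of all genes, and eEF5, eIF1A, eIF2gamma, eIF3a and eIF5B were the ones lost. The IDR list itself still came from all 3 replicates, so these losses do not show dependence on replicate 1. eIF2gamma and eIF5B were also lost when the filter used either other pair of replicates. In the relaxed pooled list, 23 initiation and 5 elongation factor genes had a call, 53.8% of the factor genes together, where 46.8% of all genes had one. The factor genes thus stood nearer to all genes over every pooled call than over the IDR peaks.

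The members bound in the IDR list were also counted by class of factor, where 14.2% of all protein-coding genes were bound. Both genes of the scanning factors eIF1 and eIF1A were bound, though another gene's start site was nearer to each summit. The single eIF6 gene was bound as well. Of the 16 eIF3 genes 4 were bound, of the 13 eIF4 genes 1, of the 10 genes of eIF2, its exchange factor eIF2B, eIF2A and eIF2D 1, and 1 of the genes of eIF5 and eIF5B. Among elongation factors, 2 of the 5 eEF1 genes were bound, as were the single eEF2 and eEF5 genes, and eEFSec, the factor for selenocysteine, was not. These are counts of few genes and were not tested between classes.

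**Figure D1:**
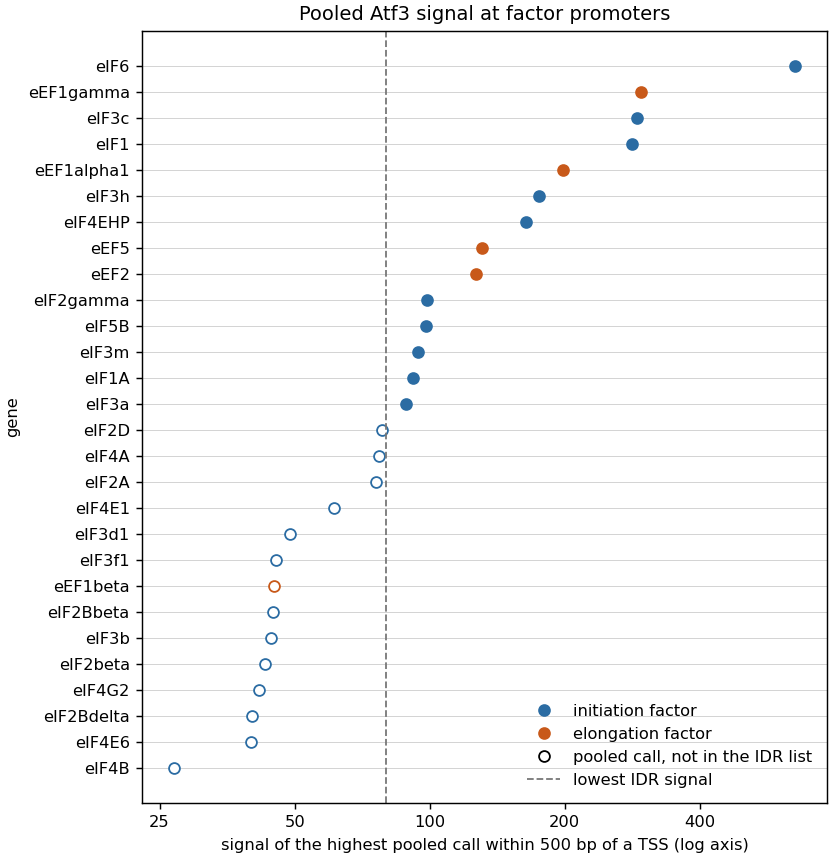
Signal of the highest pooled call within 500 bp of a start site (horizontal log axis) for the 28 factor genes with a pooled call, with filled points for genes bound in the IDR list and the lowest IDR signal as a dashed line. eIF6 stands apart at 654, and 3 initiation factor genes lie just under the line, at 76.1 to 78.1.

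eIF6 had the highest signal of all factor genes. It binds the large ribosomal subunit and keeps it from joining the small one too early. Its peak (2R, start 23850262, end 23850550) had a pooled signal of 654 and was rank 38 of the pooled calls. It was rank 63 in replicate 1, 36 in replicate 2 and 31 in replicate 3, a mean of 43.3 ± 17.2 (SD, n = 3). It was the highest of the factor genes in every replicate, with eEF1gamma next in replicate 1 at rank 115. The summit lay 95 bp upstream of the only eIF6 start site, inside an intron of the upstream gene ytr and an exon of the antisense RNA asRNA:CR45928.

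The scanning factors eIF1 and eIF1A help the small subunit find the start codon. The peak counted for eIF1 (3L, start 3222909, end 3223104) had a signal of 282, and ranked 285, 443 and 284 in replicates 1, 2 and 3. Its summit was 328 bp upstream of eIF1 but 53 bp from the start of RpL28, a ribosomal protein gene on the opposite strand. Within 250 bp of its own start site, eIF1 had a pooled signal of only 40.5, which is below the IDR list. The peak at eIF1A (3R, start 18274353, end 18274752) was weaker, with a signal of 91.9 and replicate ranks of 2347, 3024 and 2084. That summit was 112 bp from eIF1A and 107 bp from Vps39, about midway between the paired start sites.

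The eIF3 complex is the largest initiation factor, and its bound genes were those of the subunits a, c, h and m. The eIF3c peak (2R, start 17665611, end 17665717) had a signal of 290, ranks of 419, 200 and 299 in replicates 1, 2 and 3, and a summit 52 bp upstream with no other gene's start site within 500 bp. eIF3h had a pair of IDR peaks on 2L. The stronger (start 5052306, end 5052705) had a signal of 175 and lay in an intron 274 bp downstream of an internal start site, and the weaker (start 5052558, end 5052957) had a signal of 94.2 and lay in the 5' UTR. The stronger one ranked 542, 1985 and 1269 in the replicates, so its place varied more than that of eIF3c. The eIF3m peak (2R, start 14164708, end 14165107) had a signal of 94.3 and ranked 2171, 1503 and 2680. The eIF3a peak (3R, start 4433774, end 4434173) was the weakest of the bound factor genes, with a signal of 88.6, and ranked 1975, 2741 and 5065. Its summit was 9 bp from the start of CG1074, within the 5' UTR of that gene, and 79 bp from eIF3a.

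Among the remaining 12 eIF3 genes, eIF3d1, eIF3f1 and eIF3b had only a relaxed pooled call, and the other 9 had none. eIF3d1, the cap-contacting subunit in mammals, had a pooled signal of 48.7, with rank 12694 in replicate 1, rank 3688 in replicate 2 and no call in replicate 3. eIF3f1 had a pooled signal of 45.4, with rank 6109 in replicate 1, no call in replicate 2 and rank 5194 in replicate 3. The subunits of the complex thus differed in whether their genes were bound. No call in any list was found at eIF3e, eIF3g1, eIF3g2, eIF3i and eIF3l.

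eIF2 carries the initiator tRNA, and of its subunits only the gamma gene was bound in the IDR list. The eIF2gamma peak (3R, start 15263299, end 15263698) had a signal of 98.8 and ranked 1846, 4333 and 3522 in replicates 1, 2 and 3. Its pooled summit was 41 bp upstream of a start site that eIF2gamma shares with Su(var)3-9, a histone methyltransferase gene, and the start of Set also lay within 500 bp. The highest replicate 2 summit lay 200 bp inside the gene instead, so the weaker rank there belongs to another position. eIF2alpha, the subunit phosphorylated in the stress response, had no pooled call and only a rank 27229 call in replicate 1. eIF2beta had a pooled signal of 42.8.

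eIF2D and eIF2A, which can deliver tRNA to the ribosome by other routes in mammals, lay just below the lowest IDR signal of 79.8. eIF2D had a pooled signal of 78.1 and ranked 3082, 12218 and 3029 in replicates 1, 2 and 3. eIF2A had a pooled signal of 76.1, ranked 1323 in replicate 1 and 5010 in replicate 3, and had no call in replicate 2. In both genes replicate 2 was the lowest. Of the eIF2B genes, eIF2Bbeta had a pooled signal of 44.7 and eIF2Bdelta of 40.2, and the other 3 had no pooled call. A window of 1000 bp gave eIF2Bbeta a call with a signal of 1470, near the start of its neighbour Ugalt.

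Only eIF4EHP was bound among the 13 eIF4 genes. It is a cap-binding protein that represses translation, known in fly embryos from the repression of caudal and hunchback mRNA. Its stronger peak (3R, start 24108887, end 24109286) had a signal of 164 with a summit 127 bp upstream. A second peak (start 24109091, end 24109490) had a signal of 118 and lay 45 bp from the start of the neighbour CG18428. The highest replicate calls at eIF4EHP ranked 1122, 594 and 1289, with summits 191, 268 and 249 bp upstream, between the pooled pair. A further IDR summit lay inside eIF4EHP, over 500 bp from its start.

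The helicase eIF4A was just outside the IDR list, with a pooled signal of 77.1, with a call among the 2896 strongest in 2 replicates. It ranked 1228 in replicate 1, 15903 in replicate 2 and 1858 in replicate 3. The replicate 1 summit (5982431) and the replicate 3 summit (5981586) lay near different start sites of the gene, so these calls were not at the same place. eIF4E1, the main cap-binding protein, had a pooled signal of 61.1, ranks of 5636 and 16087 in replicates 1 and 2, and no call in replicate 3. eIF4G1, the scaffold that joins both, had no pooled call and only a rank 10823 call in replicate 2. The eIF4E paralogs eIF4E3, eIF4E4, eIF4E5 and eIF4E7 and the gene eIF4H2 had no call in any list.

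eIF5B joins the ribosomal subunits as a GTPase. Its peak (3L, start 3460564, end 3460963) had a signal of 98.3 and lay in its 5' UTR, 161 bp upstream of the nearest of its start sites. It ranked 5089 in replicate 1, 889 in replicate 2 and 4304 in replicate 3. The summits of these calls, at 3460756, 3460797 and 3460744, lay near the pooled summit at 3460764, between both annotated start sites of the gene. eIF5B also held 2 IDR summits over 500 bp from its start sites. eIF5, which triggers GTP hydrolysis by eIF2, had no pooled call.

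Elongation factor peaks lay close to an annotated start site. eEF1gamma, a structural subunit of the exchange factor for eEF1alpha, had the highest signal of them, 296 (3R, start 29219971, end 29220370), with the summit 1 bp from the start. It ranked 115, 725 and 345 in replicates 1, 2 and 3. eEF1alpha1, the tRNA carrier and among the most abundant proteins of a cell, had a signal of 199 (2R, start 11891983, end 11892094) and ranked 605, 815 and 488. That summit lay in an intron, 72 bp upstream of an internal start site, and was not within 500 bp of the start of the canonical transcript.

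eEF2, the translocase, had a signal of 127 (2L, start 21681914, end 21682313), ranks of 838, 2090 and 2174, and a summit 2 bp from a start site. eEF5, formerly named eIF5A, carries the modified residue hypusine and helps ribosomes through difficult stretches. Its signal was 131 (2R, start 24057608, end 24058007), its ranks were 1086, 3363 and 1205, and its summit lay 10 bp inside the gene. Replicate 2 was the lowest for eEF1gamma, eEF1alpha1 and eEF5, and for eEF2 it lay between the others.

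The elongation factor genes that were not bound were eEF1beta, eEF1delta, eEF1alpha2 and eEFSec. eEF1beta, a nucleotide exchange subunit, had a pooled signal of 44.9 and ranks of 19288, 11138 and 7299. eEF1alpha2, the paralog of eEF1alpha1, and the exchange subunit eEF1delta had calls in replicate 3 alone, at ranks 5478 and 24181. eEFSec had no call in any list. The bound and unbound states therefore split the exchange factor complex, with gamma bound and beta and delta not.

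**Figure D2:**
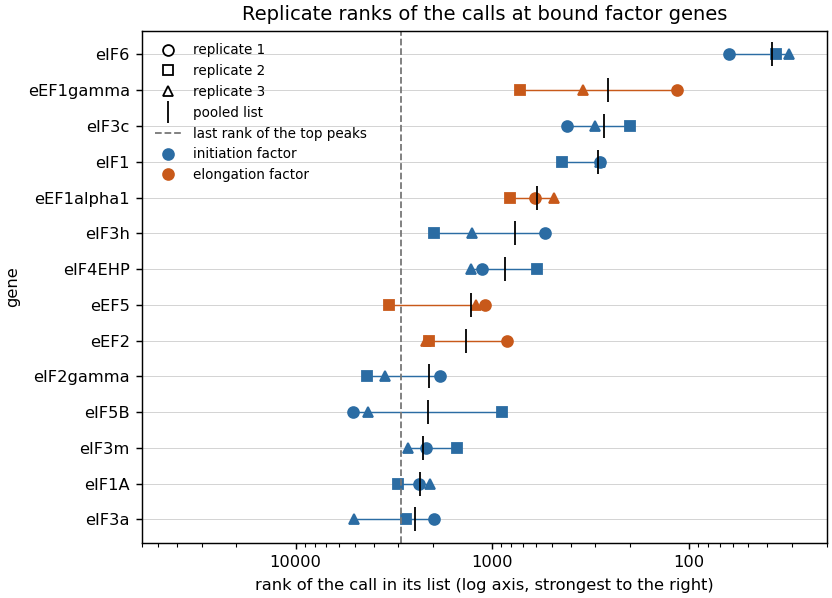
Rank of the highest call in each replicate list (markers) and in the pooled list (vertical tick) for the 14 bound factor genes, on a log axis with the strongest calls to the right. eIF6 ranks between 31 and 63 in every replicate, whereas eIF5B spans 889 to 5089, across the dashed line at rank 2896.

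To compare replicates at equal list length, the 2896 calls of highest signal were taken from each replicate and are called its top peaks. In replicate 1, top peaks reached 11 initiation and 4 elongation factor genes, where 13.2% of all genes were reached. Replicate 2 had 8 and 3, against 14.9% of all genes, and replicate 3 had 8 and 4, against 12.8%. As shares, elongation factor genes were reached in 45.8% ± 7.22 (SD, n = 3) and initiation factor genes in 20.5% ± 3.94 (SD, n = 3). Initiation minus elongation was -25, -19.3 and -31.8 percentage points in the replicates, a mean of -25.4 ± 6.26 (SD, n = 3). The sign was the same in 3 of 3 replicates, and the exact two-sided sign-flip permutation test over replicates gave p = 0.25, the smallest that 3 replicates allow, so none of these comparisons could pass the usual significance threshold. With 8 elongation factor genes, each gene is 12.5 percentage points of their share.

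The factor genes together were reached in 24.4% ± 4.00 (SD, n = 3) and all protein-coding genes in 13.6% ± 1.13 (SD, n = 3). The difference was 15.7, 6.22 and 10.2 percentage points in the replicates, above 0 in 3 of 3. Its mean was 10.7 with an SD of 4.75 (exact sign-flip permutation p = 0.25). Without the additional paralogs (eIF4E3 to eIF4E7, eIF4G2, eIF3d2, eIF3f2, eIF3g2 and eEF1alpha2) the mean difference was 16.5. None of these paralogs was reached by a top peak in any replicate, so leaving them out could only raise it. For initiation factors alone the differences were 11.8, 3.24 and 5.34 percentage points. For elongation factors alone they were 36.8, 22.6 and 37.2. The cytoplasmic ribosomal protein genes, 92 in number, were reached in 57.6% ± 8.21 (SD, n = 3), and the factor genes were lower by 36.4, 27.8 and 35.6 percentage points (exact sign-flip permutation p = 0.25). All 5 comparisons of this kind had a Benjamini-Hochberg adjusted p of 0.25 by the exact permutation test. These p-values measure only the spread between the 3 replicates, in which the same genes were counted each time. They do not place the factor genes among other gene sets, and the members were chosen with earlier results of these data known. The headers name a further file, of a role they do not state, from which all replicate lists were derived.

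**Figure D3:**
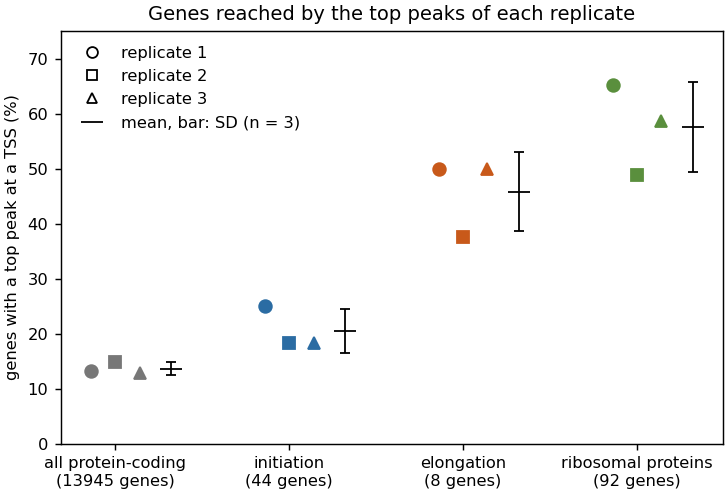
Percent of genes with a top peak within 500 bp of a start site in each replicate (markers), with the mean and SD over 3 replicates beside them. Elongation factors lie at 37.5 to 50%, above the initiation factors at 18.2 to 25%, and below the ribosomal protein genes in every replicate.

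Top peaks of all 3 replicates reached 9 of the 52 (17.3%), against 8.12% of all protein-coding genes. These were eIF1, eIF3c, eIF3h, eIF3m, eIF4EHP, eIF6, eEF1alpha1, eEF1gamma and eEF2. Another 4 were reached in 2 replicates (eIF1A, eIF3a, eIF4A and eEF5), 3 in 1 replicate (eIF2A, eIF2gamma and eIF5B) and 36 (69.2%) in none, against 80.1% of all genes. Counting every call, a factor gene had one in replicate 1 in 33 cases (51.7% of all genes), in replicate 2 in 27 cases (43.1% of all genes) and in replicate 3 in 26 cases (40.8% of all genes). With every call the order of the classes was not the same in each replicate: elongation was at 62.5% and initiation at 63.6% in replicate 1, and elongation was the higher in the other two.

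By the median, the strongest summits at elongation factor genes were nearer to an annotated start site than those at initiation factor genes. The median distance was 6 bp over the 4 bound elongation factor genes, with a range of 1 to 72 bp. It was 103.5 bp over the 10 bound initiation factor genes, with a range of 41 to 328 bp. The ranges overlap, since eIF2gamma at 41 bp and eIF3c at 52 bp were nearer than eEF1alpha1 at 72 bp. Each gene entered at its strongest summit, so the weaker eIF3h summit, 22 bp from a start site, was left out. Distances are to the nearest of all start sites of a gene. For eEF1alpha1 and eEF5 this was not the canonical start site. The median was 40 bp over the 59 bound ribosomal protein genes and 134 bp over all 1974 bound genes. Distances come from the pooled summits and were not tested. In the replicate lists, the summits of eEF2 lay 2 to 11 bp from a start site, those of eEF1gamma 4 to 36 bp, those of eEF5 26 to 43 bp and those of eEF1alpha1 57 to 113 bp.

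**Figure D4:**
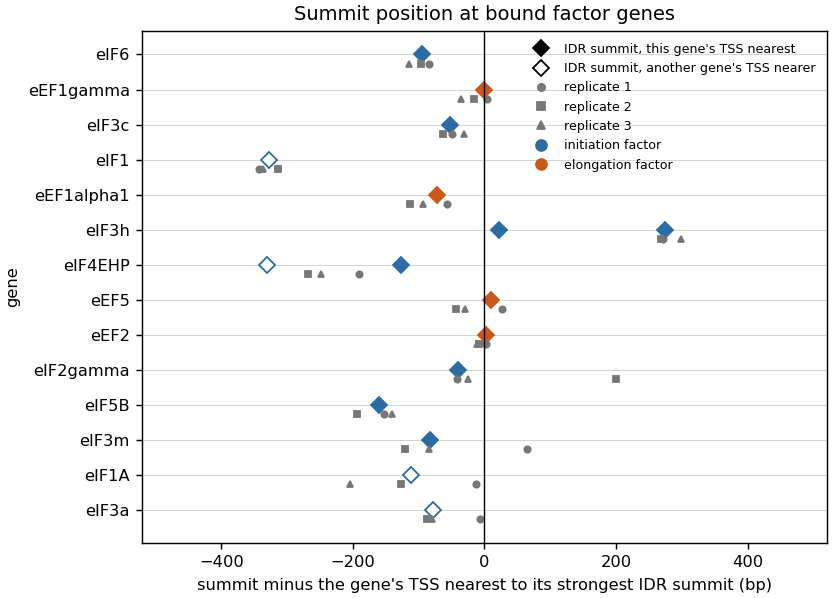
Distance in bp to each IDR summit (diamonds) and to the highest call in each replicate (small grey markers) from the start site of the gene that is nearest to its strongest IDR summit, negative upstream, for the 14 bound factor genes. Open diamonds have another gene's start site nearer, as for eIF1, eIF1A and eIF3a, and elongation factor summits cluster near 0.

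Peaks shared with a neighbouring gene were common at the bound initiation factor genes, as over all bound genes. In 7 of 10 (70.0%) the summit was also within 500 bp of another protein-coding gene's start site, against 59.8% of all bound genes, and in 3 of these (eIF1, eIF1A and eIF3a) the other start was nearer. The 4 bound elongation factor genes had a summit that no other gene shared. Among initiation factor genes with another gene's start site within 500 bp, 8 of 19 (42.1%) were bound, and among those without, 2 of 25 (8.0%) were, namely eIF3c and eIF6. Over all protein-coding genes the corresponding shares were 27.8% and 8.05%. Among elongation factor genes, 1 of 2 with such a neighbour and 3 of 6 without were bound. Counting only the gene whose start site is nearest to a summit left 7 initiation and 4 elongation factor genes, and 10.2% of all genes.

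The factor promoters held DRE more often than all promoters, as the ribosomal protein promoters did. In the 300 bp from 250 bp upstream to 50 bp downstream of the canonical start site, DRE was present in 14 of 52 (26.9%), against 8.94% of all promoters. It was in 6 of the 14 bound factor genes and in 8 of the 38 others, and in 14.2% of all bound genes. Of the ribosomal protein promoters 30.4% held it, 30.5% of the bound and 30.3% of the unbound ones. Among elongation factor genes it was in 1 of 4 bound and 1 of 4 unbound. DRE was not the only word more frequent at bound factor genes. The TATA box was in 9 of the 14 bound factor genes and 15 of the 38 others, against 45.3% of all promoters. The TCT initiator was searched only on the sense strand, with its C within 5 bp of the canonical start site. It was in 5 of 52 (9.62%), against 1.45% of all promoters. These were eEF2 and eEF5, which were bound, and eIF3i, eIF4A and eIF3f1, which were not. In each of them the C lay 4 or 5 bp downstream of the annotated start. A match also lay at a start site of the bound gene eIF3m that is not the canonical one. The TCT initiator was in 38 of 92 ribosomal protein promoters (41.3%). Bound ribosomal protein genes carried it in 35.6% and unbound ones in 51.5%.

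The CRE, TGACGTCA, was in none of the 52 factor promoters and in 0.423% of all promoters, so it is too rare for its absence to say much. The CRE core, TGACGT, was in 6 of the 52 (11.5%), against 6.66% of all promoters. It was in 2 of the 14 bound factor genes and 4 of the 38 others, and in 8.76% of all bound genes. Within 100 bp to either side of the summits, DRE was in 6 of the 16 IDR peaks at factor genes, against 8.30% of the 1469 IDR peaks at promoters. Those 6 peaks were at eIF1, eIF1A, eIF2gamma, eIF3a, eIF6 and eEF1gamma. The CRE core was in 1 of the 16, at eIF2gamma, 5 bp from the summit, against 6.47% of promoter peaks. An AP-1 site (TGACTCA or TGAGTCA) was in 1 of the 16, at eIF4EHP, against 2.45%. The CRE was in none of the 16, against 1.57%. The windows also differed in base composition, with a median GC content of 43.8% at factor genes and 37.3% at all promoter peaks, and the part of this in the motif counts was not tested. No match says only that these letters are not in the window.

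**Figure D5:**
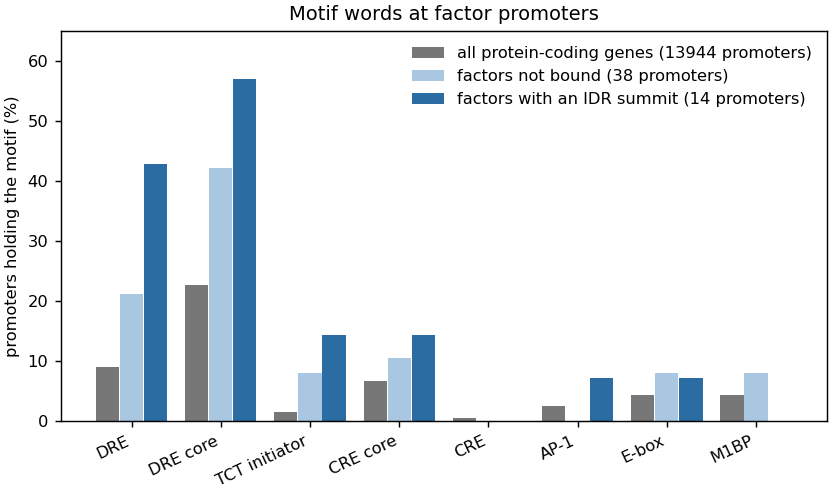
Percent of promoters holding each motif, for all protein-coding genes (13944 promoters), factor genes without an IDR summit (38) and factor genes with one (14). DRE is in 8.94% of all promoters, 21.1% of unbound and 42.9% of bound factor promoters, and the CRE is in none of the factor promoters. For ribosomal protein promoters, not drawn, DRE is in 30.3% of unbound and 30.5% of bound ones. The TATA box, also not drawn, is in 45.3% of all promoters, 39.5% of unbound and 64.3% of bound factor promoters.

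Other genes of translation were looked at from a list of 36 symbols, of which 34 were in the annotation. Of these 8 were bound in the IDR list (23.5%), beside 26.9% of the factor genes and 14.2% of all protein-coding genes. The strongest was larp, an RNA-binding protein of 5'-terminal oligopyrimidine mRNAs in mammals, with a signal of 711 and ranks of 29, 35 and 35 in the replicates. Thor, the fly eIF4E-binding protein, had a signal of 122 with its summit 30 bp upstream, and ranked 1045, 6407 and 1810 in replicates 1, 2 and 3. eRF1, the release factor that reads stop codons, had a signal of 122. The others were pAbp (103), mxt (86.6), Paip2 (80.2), Dph4 (224) and Dph1 (150). The last pair are genes of diphthamide synthesis, which modifies eEF2, and the summit counted for Dph4, 313 bp from its start, was nearer to the start of the ribosomal protein gene RpL13A. By group, 1 of 5 genes of termination and rescue, 5 of 13 binding proteins and regulators, 2 of 5 hypusine and diphthamide enzymes and none of the 8 mitochondrial factors were bound. The groups are small, and their counts were not tested against the 14.2% of all genes. None of the 3 genes of eIF2 kinases and phosphatase was bound: Gcn2 had a pooled signal of 74.0 and PEK of 52.6.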

How the data were processed

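Atf3 was profiled by ChIP-seq in 3 replicate samples of whole embryos. Per the file headers, the authors deposited for the dm6 assembly a relaxed peak list for each replicate, one for the pooled replicates and one kept at an IDR threshold, all in narrowPeak format; for the aligner, peak caller and IDR cutoff, names and settings are not given in the sources used. Their signal value for each peak, deposited by the authors, was used to rank calls within a list. The dm3 lists were not used. Genes and start sites came from Ensembl annotation release 115 and sequence from the release 6 genome. A gene was bound when a summit lay within 500 bp of a start site, and where several did, the call of highest signal gave its values. Replicates were compared by exact two-sided sign-flip permutation tests with Benjamini-Hochberg adjustment. Peaks overlapped when at least 50% of the shorter interval was shared. Named genes were every bound member, up to 8 unbound members of highest pooled signal, and 7 core factors whether bound or not, and others were named in counts. The members and lists were chosen with earlier results of these data known. The assignment step was tested on simulated data. Alternatives covered the window, the start sites, the number of peaks, the paralogs and leaving out each replicate. For the counts of bound genes, leaving out a replicate meant keeping the IDR peaks that overlapped top peaks of both others. Python 3.11.15, numpy 2.4.6, pandas 2.3.3 and matplotlib 3.10.9 were used.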

Additional observations from a re-analysis of the deposited data

How the results depend on the processing

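The counts of bound genes depended on how strong a peak had to be. With only the IDR peaks above the median signal of that list, 5 initiation factor genes and 9 factor genes were bound, and 7.97% of all genes against 14.2% with every IDR peak. With IDR peaks in the top peaks of all 3 replicates, 6 and 9 were, and 8.05% of all genes. For each replicate in turn, keeping the IDR peaks that overlapped top peaks of both other replicates gave 6 to 7 initiation and 3 to 4 elongation factor genes. Together these were 9 to 11 factor genes, and 8.94 to 10.2% of all genes were bound. The IDR list was not made again without a replicate, so this filter could only lower the counts. The other alternatives (windows of 250 and 1000 bp, nearest or canonical start site, no additional paralogs) gave 7 to 11 initiation factor genes, and elongation factor genes numbered 3 or 4 under every alternative. Initiation minus elongation ranged from -32.2 to -18.6 percentage points and factor genes minus all genes from 8.23 to 16.5, with no change of sign in these means. The 16.5 was without the additional paralogs, none of which was reached by a top peak. No paired analysis was possible because the samples form 1 group and pair with no other; the sign-flip tests compared gene sets within each replicate. Peak lists carry no depth, and a gene without a call may have had signal below the list.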
